A study of Mus musculus with 12 samples.

Results

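The 6 mature arms of the hairpins miR-28a, miR-708 and miR-151 were followed in small RNA counts from extracellular vesicles (EVs, membrane particles that cells release) of adipose tissue and from hippocampus. They were taken by name, as mmu-miR-28a-5p, mmu-miR-28a-3p, mmu-miR-708-5p, mmu-miR-708-3p, mmu-miR-151-5p and mmu-miR-151-3p (written below without the species prefix), and all 6 had a row among the 1084 small RNAs of the EV counts and the 1158 of the hippocampus counts. All mice were male, wild-type C57BL/6J, and had been fed for 12 weeks on either chow or a high-fat diet (HFD). With EVs and hippocampus from each diet, there were 4 groups of 3 libraries. Whether the libraries of a group stem from different mice is not in the labels, and the p-values below cover the spread among these libraries, which could be technical. The hairpins were selected on measured values of these data, but the rule does not record which. The hippocampal diet contrast, where a higher level of miR-28a-5p was known, is treated as used: for the 6 arms its values are a description with no p, and counts of calls there support nothing. Whether values of other contrasts were used is not known, and the tests in EVs and between sample types are to be read with that limit. Those between sample types, of levels and of arm ratios, also use the hippocampus libraries behind the diet contrast treated as used.

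A miRNA hairpin is cut out of a longer transcript and trimmed to a short duplex, whose strands are named 5p and 3p after the arm of the hairpin that they come from. One strand is usually kept by an Argonaute protein and the other is mostly lost, and the kept strand finds target mRNAs mainly through its seed, bases 2 to 8. The hairpins of miR-28 and miR-151 descend from the LINE-2 repeat. miR-28 is best known as a growth-restraining miRNA of germinal centre B cells, miR-708 as a miRNA that is induced together with its host gene in endoplasmic reticulum stress, and miR-151 as a partner of its host gene in the migration of tumour cells.

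All 3 hairpins lie in introns of protein-coding genes, on the strand of the host and outside every annotated exon of it (GENCODE, GRCm38). The hairpin of miR-28a lies at chr16:24827855-24827940, within Lpp, a LIM-domain protein of focal adhesions. That of miR-708 lies at chr7:96249424-96249532, within Tenm4, a teneurin of the cell surface. That of miR-151 lies at chr15:73254815-73254882, within Ptk2, the focal adhesion kinase.

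The mature arms of miR-28a and miR-708 are shown because their seeds, in capitals, set which of them could share targets. Sequences are from RefSeq (GRCm38.p6, plus strand), which matched 4 of the 6 arms.
miR-28a-5p: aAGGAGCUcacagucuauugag
miR-708-5p: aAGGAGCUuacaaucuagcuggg
miR-28a-3p: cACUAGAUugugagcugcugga
miR-708-3p: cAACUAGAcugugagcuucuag
The 5p arms of miR-28a and miR-708 carry the same seed, AGGAGCU, and no other miRNA of the RefSeq table carries it. Set against each other without gaps they were identical at 16 of 22 positions, and the first difference, C9U, falls just outside the seed (positions counted from the 5′ end of miR-28a-5p). The 3p arms matched at 17 of 21 positions only when shifted by 1 base, and this shift gives them different seeds, ACUAGAU and AACUAGA. A close copy of the first hairpin, miR-28c, held 4 counts over all 6 EV libraries. How the authors treated reads that match both copies is not given in the sources used here, so miR-28a-5p could hold reads of its copies.

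Library totals ran from 1825488 to 5941955 counts in EVs, from 2331091 to 5723918 in chow hippocampus and from 11143775 to 12874600 in HFD hippocampus, so depth and diet went together in hippocampus. Levels are CPM after TMM scaling, which sets libraries of unequal depth on 1 scale. The 5 brain markers miR-9-5p, miR-124-3p, miR-128-3p, miR-218-5p and miR-138-5p took 29.6% to 33.6% of counts in hippocampus and 0.143% to 0.311% in EVs. The hippocampus counts head the non-HFD columns LFD, and reading these as chow is an inference, as no further diet is labelled. In bulk hippocampus fewer cells of a type and less RNA per cell cannot be told apart. In EVs the same holds for fewer vesicles from a cell type and less of a miRNA per vesicle.

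The most abundant arms were miR-708-3p and miR-151-3p, and miR-28a was the rarest of the hairpins in hippocampus. By mean level miR-708-3p ranked 46th of 389 miRNAs tested in chow EVs and 37th of 552 in chow hippocampus. miR-151-3p ranked 71st and 60th. The rarest arm in EVs was miR-151-5p, at rank 369 of 389 in chow, which rested on 6 to 36 counts per library. The 6 arms together took 0.139% to 0.297% of counts in EVs, 0.291% to 0.338% in HFD hippocampus, and 0.851%, 0.687% and 0.227% in the chow hippocampus libraries headed LFD 1, 2 and 3. The library headed LFD 3 was thus far below the other chow hippocampus libraries, and values without it are given where it decides a result.

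**Figure D1:**
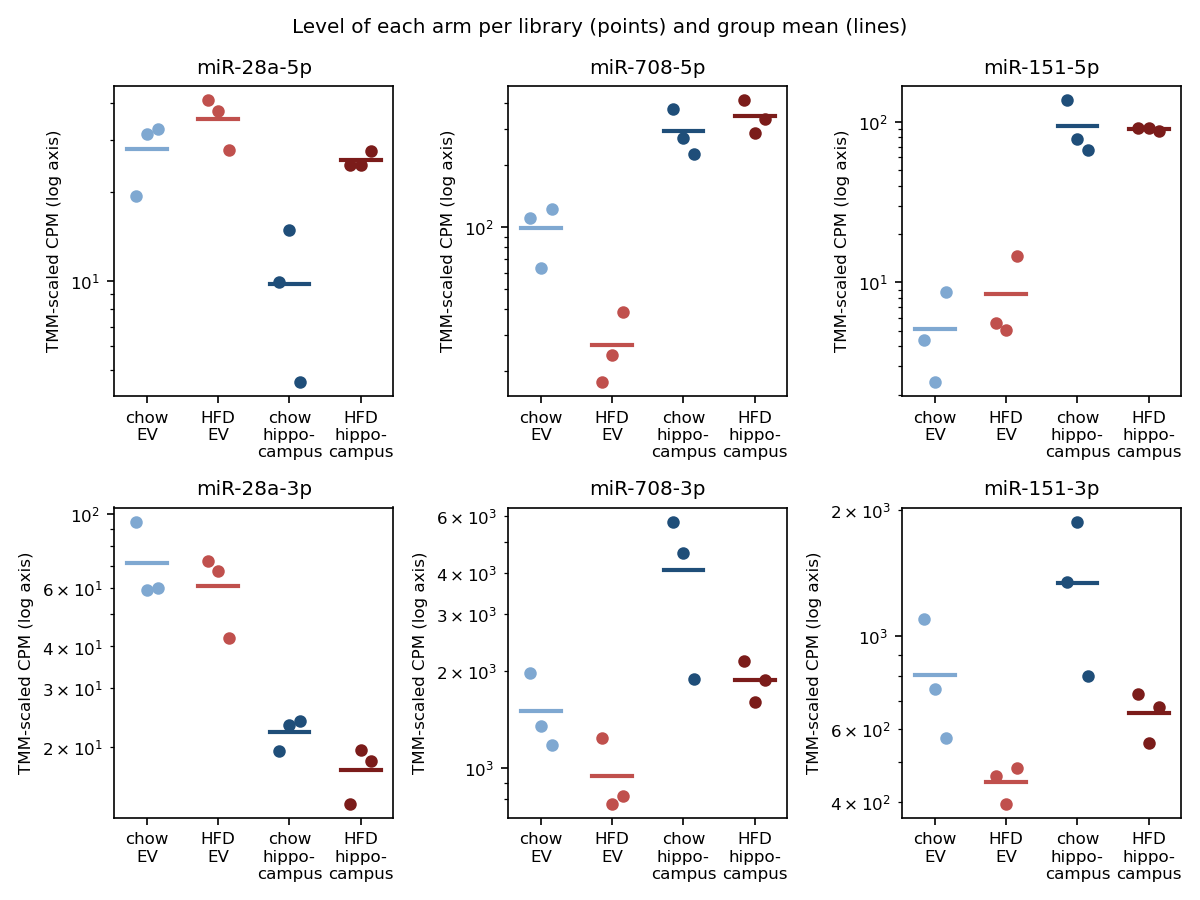
Level of each arm in each of the 12 libraries (points, TMM-scaled CPM on a log axis, scaled within EVs and within hippocampus) with the mean of each group of 3 (lines). miR-708-5p lies at 63.4 to 123 CPM in chow EVs and at 17.7 to 38.5 CPM in HFD EVs, and miR-28a-5p at 4.54 to 14.9 CPM in chow and 24.6 to 27.6 CPM in HFD hippocampus.

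Which arms of these hairpins differed with diet in adipose EVs was asked first. miR-708-5p was the arm that stood furthest apart. It lay at 111, 63.4 and 123 CPM in chow EV libraries 1 to 3 and at 17.7, 24.0 and 38.5 CPM in HFD EV libraries 1 to 3. Every HFD library was below every chow library. The log2 fold change was -1.89 (SE 0.43, lower in 3 of 3 HFD libraries), and with an adjusted p of 0.0510 (edgeR quasi-likelihood test, Benjamini-Hochberg over 389 miRNAs) it just missed the threshold of 0.05. It passed with DESeq2 (adjusted p = 0.00134), with RLE size factors (0.0456), with library totals (0.0476), without a filter (0.00402), with repeated reads kept in 1 copy (0.0451) and after omission of the third HFD EV library (0.0403). Calls over all miRNAs also rose from 17 in the settings where it passed, to at least 21 and at most 56. Over all 12 alternatives the adjusted p of miR-708-5p lay between 0.00134 and 0.194, and its log2 fold change between -2.13 and -1.54.

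Its partner from the same hairpin, miR-708-3p, lay at 1968, 1345 and 1175 CPM in chow EVs and at 1235, 776 and 817 CPM in HFD EVs. The diets overlapped, since HFD library 1 was above chow library 3. The log2 fold change of -0.67 (SE 0.32) did not pass (adjusted p = 0.250).

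miR-151-3p lay at 1098, 747 and 569 CPM in chow EVs and at 461, 397 and 484 CPM in HFD EVs, with no overlap. The log2 fold change of -0.85 (SE 0.33) did not pass either (edgeR adjusted p = 0.156). miR-151-5p, at 4.36, 2.39 and 8.68 CPM in chow and 5.58, 5.08 and 14.6 CPM in HFD EVs, overlapped between diets and had a log2 fold change of 0.73 with a wide SE of 0.65 (edgeR adjusted p = 0.524). It was 0.27 without HFD EV library 3 and 1.40 without chow EV library 3. The arms of that hairpin thus had values of opposite sign, neither of which passed.

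The arms of miR-28a differed little between the diets against their spread. miR-28a-5p lay at 19.4, 31.5 and 32.7 CPM in chow and at 40.9, 37.4 and 27.7 CPM in HFD EVs (log2 fold change 0.35, SE 0.34, edgeR adjusted p = 0.583). miR-28a-3p lay at 94.9, 59.1 and 60.1 CPM in chow and at 72.1, 67.5 and 42.3 CPM in HFD EVs (log2 fold change -0.23, SE 0.36, edgeR adjusted p = 0.753). The sign of miR-28a-3p turned with library totals (0.070), and also when chow EV library 1 or HFD EV library 3 was omitted (0.13 for each).

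In all, edgeR called 0 of the 6 arms in EVs, where it called 4.37% of 389 miRNAs, that is 17. DESeq2 called 1 of the 6 arms and 55 over all miRNAs. No miRNA at all passed in edgeR once chow EV library 1, chow EV library 2, HFD EV library 1 or HFD EV library 2 was omitted. At an unadjusted p under 0.05 there were 2 of 6, against 25.4% of all miRNAs tested. Of the 6, 2 were lower in HFD with no overlap between the diets and 0 were higher with none, against 17% and 15.7% of all. The median log2 fold change of the 6 arms was -0.45, and that of all miRNAs tested was -0.13.

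Markers of several cell types moved with diet in the same EV libraries. The endothelial miR-126a-3p took 0.173% to 0.264% of counts in chow and 0.101% to 0.109% in HFD EVs. The 3 smooth muscle and fibroblast markers together took 0.962% to 1.20% and 0.534% to 0.654%. Of them miR-143-3p and miR-145a-5p were lower in HFD without overlap (log2 fold changes -1.97 and -0.93). The third, miR-199a-3p, went the other way, with overlap (0.28). The 4 immune markers together took 0.0714% to 0.0889% and 0.207% to 0.696%. The liver miRNA miR-122-5p took 0.0183% to 0.0298% in chow and 0.0121% to 0.0151% in HFD EVs. All of these markers were detected in both diets. The summed shares of the brain, epithelial, muscle, red cell, and testis and epididymis markers overlapped between the diets in EVs. The part of cell types in the values of miR-708-5p was not tested.

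**Figure D2:**
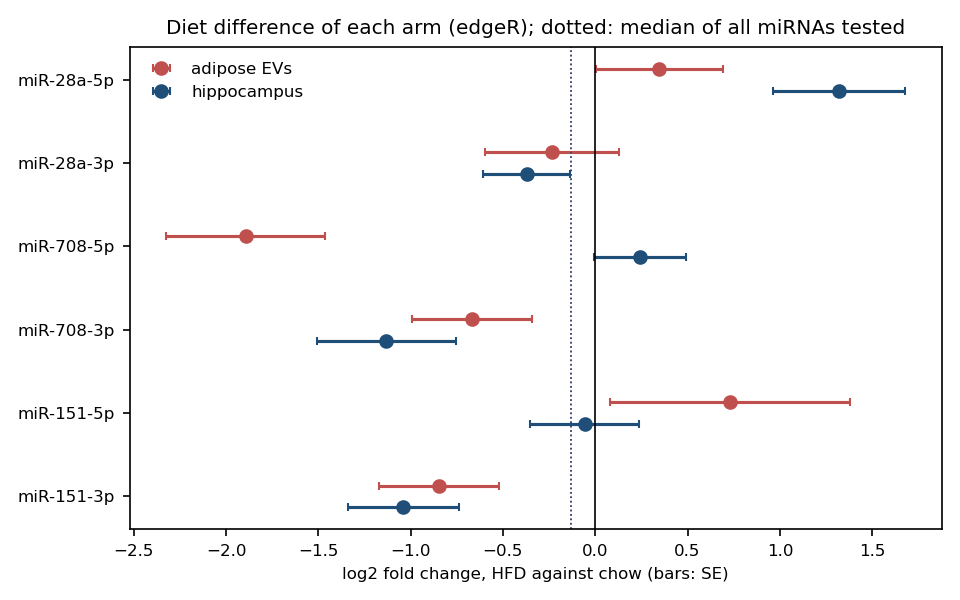
Log2 fold change of each arm between HFD and chow (x axis, edgeR, bars are SE) in adipose EVs (red) and hippocampus (blue), 3 libraries per group; dotted lines mark the median of all miRNAs tested, -0.13 in both. The 3p arms lie below 0 in both sample types (miR-28a-3p in EVs is above 0 under some settings), whereas miR-708-5p is at -1.89 in EVs and 0.24 in hippocampus.

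In hippocampus the arm with the largest value was miR-28a-5p, whose difference with diet was known beforehand. It lay at 9.90, 14.9 and 4.54 CPM in the chow libraries headed LFD 1 to 3 and at 24.6, 24.6 and 27.6 CPM in HFD libraries 1 to 3, with no overlap. Its log2 fold change was 1.32 (SE 0.36), and 1.81% of all miRNAs tested had a larger one. The chow values rest on 45, 85 and 8 counts. Without the library headed LFD 3 the log2 fold change was 1.10, and without LFD 2 it was 1.85. Its partner miR-28a-3p stayed near its chow level, at 19.4, 23.3 and 23.9 CPM in chow and 13.5, 19.6 and 18.1 CPM in HFD hippocampus, which overlapped (log2 fold change -0.37, SE 0.23).

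The 3p arms of the other hairpins were lower in HFD than in chow on average. miR-708-3p lay at 5780, 4612 and 1889 CPM in chow and at 2140, 1595 and 1874 CPM in HFD hippocampus. The chow library headed LFD 3 fell within the HFD range, while the other chow libraries were above every HFD library. The log2 fold change was -1.13 (SE 0.38), and -1.41 without LFD 3. miR-151-3p lay at 1345, 1876 and 800 CPM in chow and at 727, 555 and 675 CPM in HFD hippocampus, with no overlap (log2 fold change -1.04, SE 0.30, and -1.25 without LFD 3).

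Their 5p arms did not share this difference. miR-708-5p lay at 378, 273 and 227 CPM in chow and at 415, 287 and 336 CPM in HFD hippocampus, with overlap (log2 fold change 0.24, SE 0.25). miR-151-5p lay at 136, 77.9 and 66.5 CPM in chow and at 92.0, 90.9 and 87.6 CPM in HFD hippocampus, again with overlap. Its log2 fold change of -0.058 (SE 0.29) turned above 0 with library totals, RLE size factors, DESeq2, no filter, and without LFD 1 or any single HFD library, to 0.34 at most.

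For description, 1 of the 6 arms, miR-28a-5p, was called in hippocampus by edgeR, against 11.8% of 552 miRNAs, that is 65. DESeq2 called 2 of the 6 arms and 109 over all miRNAs. The edgeR call of miR-28a-5p was lost with library totals, with repeated reads kept in 1 copy, and without LFD 1 or any single HFD library. Over all miRNAs the 65 edgeR calls became 33, 23 and 123 without LFD 1, LFD 2 and LFD 3, and 8, 38 and 9 without HFD libraries 1, 2 and 3. With no overlap between diets, 1 of 6 was higher and 1 was lower, against 16.3% and 21% of all. Nothing is read from these counts. The median log2 fold change of the 6 arms was -0.22, beside -0.13 for all miRNAs tested. Among markers of other cells, the 3 red cell markers took 0.0245% to 0.0481% of counts in chow and 0.00882% to 0.0180% in HFD hippocampus, and the liver miRNA miR-122-5p took at most 0.00581% in chow and 0.000355% in HFD. The 3 muscle markers took 0.0472% to 0.0647% and 0.0194% to 0.0387%. The 3 smooth muscle and fibroblast markers took 1.25% to 2.64% and 1.32% to 1.75%, and miR-126a-3p took 0.335% to 0.487% and 0.491% to 0.575%. All of these were detected in both diets. Their part, and that of depth, was not tested.

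The balance of the arms can be read within a library, where it does not depend on how libraries are scaled. In hippocampus the share of 5p reads was higher in HFD than in chow for each of the 3 hairpins, with no overlap. Depth went together with diet there, and its part in these shares was not tested. For miR-28a the 5p arm held 33.8%, 39.0% and 16.0% of the reads of both arms in chow and 64.6%, 55.7% and 60.4% in HFD hippocampus. The 3p arm was therefore the more abundant one in every chow library and the 5p arm in every HFD library. For miR-708 the 5p share was 6.13%, 5.58% and 10.7% in chow and 16.2%, 15.2% and 15.2% in HFD hippocampus. For miR-151 it was 9.21%, 3.99% and 7.67% in chow and 11.2%, 14.1% and 11.5% in HFD hippocampus.

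**Figure D3:**
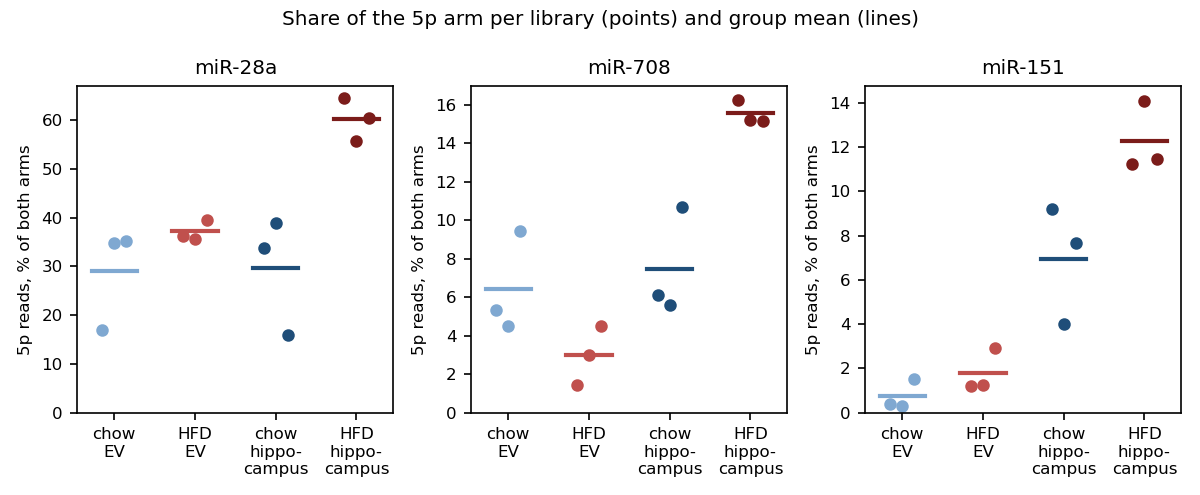
Share of 5p reads among the reads of both arms (y axis, percent, from 0) for each hairpin in each of the 12 libraries (points), with group means (lines). In hippocampus every HFD library lies above every chow library for all 3 hairpins, whereas in EVs miR-708 has its highest share, 9.46%, in a chow library.

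On the log2 scale, with 0.5 added to each count, the ratio of 5p to 3p reads was higher in HFD hippocampus by 1.91 for miR-28a, 1.25 for miR-708 and 0.98 for miR-151. Among 157 hairpins with both arms tested these differences ranked 2nd, 16th and 24th from the highest, and the median of all was -0.026. The value of miR-28a leans on the library headed LFD 3. Its log2 ratio was -2.32, from 8 and 42 counts, against -0.96 and -0.64 for LFD 1 and LFD 2. For miR-708 LFD 3 was instead the chow library nearest to HFD (-3.06, against -3.94 and -4.08). Differences and ranks without LFD 3 were not computed. Of all 157 hairpins 19.1% had a higher ratio with no overlap and 16.6% a lower one. These values are a description, since this contrast is treated as used in the choice of the hairpins.

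In EVs the 3 hairpins did not share a direction. The 5p share of miR-28a was 16.9%, 34.8% and 35.3% in chow and 36.2%, 35.7% and 39.6% in HFD EVs, a log2 difference of the ratio of 0.59 with no overlap. That of miR-708 was 5.33%, 4.51% and 9.46% in chow and 1.41%, 3.0% and 4.50% in HFD EVs, a log2 difference of -1.24 in which the lowest chow and the highest HFD library were nearly equal. That of miR-151 was 0.395%, 0.320% and 1.50% in chow and 1.20%, 1.26% and 2.92% in HFD EVs, a log2 difference of 1.48 with overlap. None of these 3 differences passed an exact permutation test (two-sided p = 0.1, 0.2 and 0.3, adjusted p = 0.2, 0.24 and 0.3 over 6 arm ratio tests), where 3 libraries against 3 allow no p below 0.1. The value of miR-28a rests on chow EV library 1, without which the log2 difference was 0.13. Of 105 hairpins with both arms tested in EVs, 12.4% had a higher ratio in HFD with no overlap and 13.3% a lower one.

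**Figure D4:**
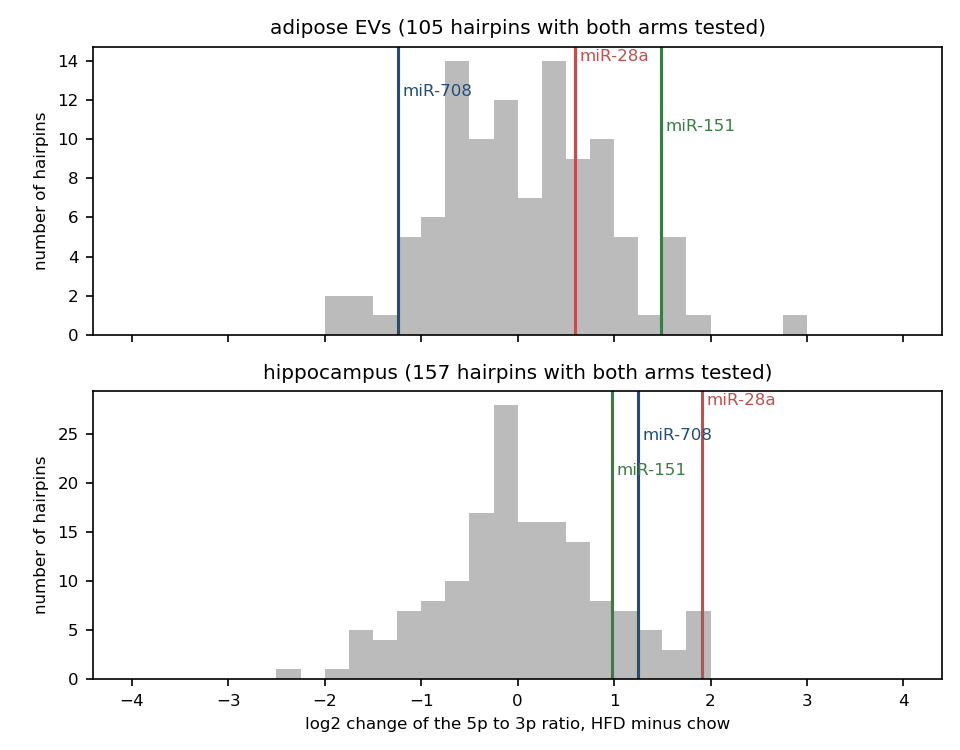
Number of hairpins (y axis) by the log2 difference of the 5p to 3p ratio between HFD and chow (x axis, bins of equal width) in EVs (105 hairpins) and hippocampus (157 hairpins). Coloured lines mark miR-28a, miR-708 and miR-151, which lie at 1.91, 1.25 and 0.98 in hippocampus and at 0.59, -1.24 and 1.48 in EVs.

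Since miR-28a-5p and miR-708-5p carry the same seed, AGGAGCU, their reads were also set against each other. In chow EVs miR-28a-5p held 14.9%, 33.2% and 21.0% of the reads of the pair, and in HFD EVs 69.8%, 60.9% and 41.8%. Every HFD EV library was above every chow EV library. In hippocampus miR-708-5p held nearly all reads of this seed with either diet, and miR-28a-5p took 2.56%, 5.17% and 1.97% in chow and 5.60%, 7.91% and 7.60% in HFD. This share was chosen after its values were seen and was not tested.

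**Figure D5:**
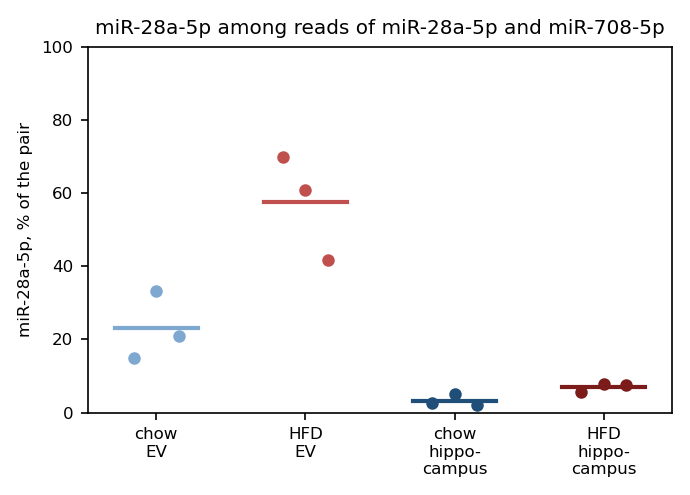
Share of miR-28a-5p among the reads of miR-28a-5p and miR-708-5p, which carry the same seed (y axis, percent), in each of the 12 libraries (points) with group means (lines). HFD EV libraries lie at 41.8% to 69.8%, chow EV libraries at 14.9% to 33.2%, and hippocampus libraries at 7.91% or below.

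How the levels differed between sample types was tested in a fit of all 12 libraries over the miRNAs found in both. The median log2 difference of all miRNAs tested was 0.52 in chow and -0.068 in HFD mice. In chow mice it was 0.83 with library totals and 0.13 without LFD 2. There 19.8%, 41.4%, 42.2% and 48.7% of miRNAs had a larger value than miR-151-5p, miR-708-5p, miR-708-3p and miR-151-3p. miR-708-5p and miR-151-5p were higher in hippocampus than in EVs with both diets, and miR-28a-3p was lower with both. In that common scaling, miR-151-5p stood at 89.0 ± 44.4 CPM (SD, n = 3) in chow hippocampus, 79.9 ± 5.08 in HFD hippocampus, 9.57 ± 6.17 in HFD EVs and 5.58 ± 3.37 in chow EVs. Only the hippocampus and EV groups were apart in this order, while the diets overlapped within each. The log2 difference between hippocampus and EVs was 4.04 in chow mice (SE 0.59, edgeR adjusted p = 1.31e-05) and 3.09 in HFD mice (SE 0.55, edgeR adjusted p = 7.95e-05).

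miR-708-5p stood at 304 ± 40.2 CPM in HFD hippocampus, 277 ± 111 in chow hippocampus, 108 ± 30.8 in chow EVs and 30.4 ± 12.5 in HFD EVs (SD, n = 3). Both hippocampus groups overlapped, and each later step of this order was without overlap. The log2 difference between hippocampus and EVs was 1.37 in chow mice (SE 0.40, edgeR adjusted p = 0.00565) and 3.33 in HFD mice (SE 0.44, edgeR adjusted p = 3.52e-06). miR-708-3p stood at 4047 ± 2398 CPM in chow hippocampus, 1647 ± 147 in HFD hippocampus, 1639 ± 429.5 in chow EVs and 1067 ± 272 in HFD EVs, and neighbours in this order overlapped throughout. It was higher in hippocampus by 1.30 in chow mice (SE 0.42, edgeR adjusted p = 0.0100), a difference that no longer passed without the library headed LFD 1 or LFD 2 (log2 differences 0.81 and 0.95), without chow EV library 3 (0.93) or with repeated reads kept in 1 copy (0.88). In HFD mice the difference of 0.63 (SE 0.42) did not pass (edgeR adjusted p = 0.177), but 1.14 without a filter, 0.87 without LFD 3 and 0.80 in a fit of the HFD libraries alone did.

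miR-28a was the hairpin with higher levels in EVs. miR-28a-3p stood at 78.0 ± 20.4 CPM in chow EVs, 68.6 ± 17.5 in HFD EVs, 20.5 ± 4.97 in chow hippocampus and 15.2 ± 3.61 in HFD hippocampus (SD, n = 3), with overlap between the diets and none between the sample types. It was lower in hippocampus by a log2 difference of -1.92 in chow (SE 0.39, edgeR adjusted p = 3.21e-04) and -2.17 in HFD mice (SE 0.39, edgeR adjusted p = 9.33e-05). miR-28a-5p stood at 40.0 ± 7.31 CPM in HFD EVs, 30.7 ± 8.67 in chow EVs, 22.7 ± 1.79 in HFD hippocampus and 9.83 ± 6.75 in chow hippocampus, where chow hippocampus alone was apart from its neighbour. It was lower in hippocampus by -1.61 in chow mice (SE 0.48, edgeR adjusted p = 0.00611). In HFD mice the value was -0.82 (SE 0.46, edgeR adjusted p = 0.110), which did not pass except with repeated reads kept in 1 copy (-1.23).

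miR-151-3p was the arm whose sample types were closest. It stood at 1323 ± 774 CPM in chow hippocampus, 882 ± 282 in chow EVs, 575 ± 45.7 in HFD hippocampus and 507 ± 51.8 in HFD EVs (SD, n = 3). Neighbours overlapped, apart from chow EVs and HFD hippocampus, which touched without overlap. The log2 difference between hippocampus and EVs was 0.59 in chow mice (SE 0.40, edgeR adjusted p = 0.185) and 0.18 in HFD mice (SE 0.40, edgeR adjusted p = 0.679). Its sign turned in chow mice without the library headed LFD 2 (-0.028) and in HFD mice with repeated reads kept in 1 copy (-0.18).

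In chow mice 3 of the 6 arms were called higher and 2 lower in hippocampus, against 44.9% and 34.5% of 519 miRNAs tested, or 79.4% in either direction. In HFD mice 2 were called higher and 1 lower, against 42.6% and 38.9%, or 81.5% in either direction. In chow mice 5 of 6 arms is near the share of all miRNAs, and in HFD mice 3 of 6 is below it. The HFD count lay between 3 and 4 over omissions of single libraries. The 6 arms come from 3 hairpins, so nothing is read from these counts.

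The arm ratio of miR-151 differed between the sample types as well. Averaged over both diets, the log2 ratio of 5p to 3p reads was 3.27 higher in hippocampus than in EVs, with every hippocampus library above every EV library (exact permutation test within diet, two-sided p = 0.005, the smallest it allows; adjusted p = 0.03 over 6 tests). It no longer passed as a difference of medians (3.80, adjusted p = 0.12), nor without the library headed LFD 1 (3.14, adjusted p = 0.06) or LFD 3 (3.21, adjusted p = 0.06). For miR-708 the ratio was 1.49 higher in hippocampus (exact permutation p = 0.025, adjusted p = 0.075), and it passed without chow EV library 3 (1.66, adjusted p = 0.045). For miR-28a it was 0.70 higher (exact permutation p = 0.145, adjusted p = 0.218).

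The difference of the diet effects between sample types holds the hippocampal diet contrast, so it is given as a description. For miR-708-5p the diet effect was higher in hippocampus than in EVs by 1.97 on the log2 scale (SE 0.57), and by 1.79 to 2.54 across the alternatives. For the record, edgeR called 0 of the 6 arms, against 5.78% of 519 miRNAs, that is 30. DESeq2 called 1 of the 6 arms and 76 over all miRNAs. At an unadjusted p under 0.05 there was 1 of 6, against 22.5% of all. Nothing is read from these counts.

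The miRNAs whose levels went most alike with the abundant arms were found by Pearson r over 12 libraries, after the mean of each sample type was taken off, among 148 miRNAs with at least 50 CPM in both. miR-708-3p was most like miR-151-3p (r = 0.93), the 3p arm of another of the 3 hairpins, followed by miR-1843b-5p and miR-1843a-5p (both r = 0.87). For miR-151-3p they were miR-99b-3p (r = 0.94), miR-708-3p (r = 0.93) and miR-1981-5p (r = 0.90). miR-708-5p went with other miRNAs than its partner arm, namely miR-126a-3p, the endothelial marker (r = 0.88), miR-100-5p (r = 0.79) and miR-300-3p (r = 0.77). These r values describe 12 libraries that share diet groups and depth.

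Other miRNAs, held to come from introns of protein-coding genes, were taken by name from a list of 34 hairpin names. Their hosts were not checked against the annotation, and 1 name can cover copies of a hairpin elsewhere in the genome. In EVs 2 of its 42 tested arms rose and 0 fell, against 3.34% and 1.03% of all, at a median log2 fold change of 0.40. The 2 were miR-342-3p, from an intron of Evl, which rose by 2.53 (SE 0.46, edgeR adjusted p = 0.0233), and miR-335-5p, from an intron of Mest, which rose by 1.76 (SE 0.38, edgeR adjusted p = 0.0483). Both passed in only 2 of the 6 omissions of a single library, those of chow EV library 3 and HFD EV library 3. In the other omissions no miRNA at all passed in edgeR. miR-342-3p and miR-335-5p are named because they were called, so their p-values are a description. In hippocampus 3 of 59 rose and 4 fell, against 4.35% and 7.43% of all, at a median of -0.15. Among these miR-140-5p (Wwp2) rose by 1.12 and miR-107-3p (Pank1) by 0.87, while miR-128-1-5p (R3hdm1) and miR-335-3p (Mest) had log2 fold changes of -1.11 and -1.06 (edgeR adjusted p = 0.0489, 0.0262, 0.0374 and 0.0325). These 4 are named because they were called, so their p-values are a description. All 4 passed without LFD 3, and miR-107-3p alone of them passed in any other omission, those of LFD 1 and HFD library 2. The arms of miR-335 that passed thus had different signs, in different sample types. Within EVs miR-335-3p had the sign of its partner (log2 fold change 1.18, no overlap), but it did not pass (edgeR adjusted p = 0.0896).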

How the data were processed

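Small RNA was sequenced from adipose tissue EVs and hippocampus, and the authors deposited whole-number read counts for each mature miRNA, per the file headers. Extraction used Trizol, per the labels' protocols. The submitters' processing notes list Bowtie. Genome build, miRNA annotation and counting rule: not given in the sources used here. The 5 hippocampus entries blank in HFD were left out, and 1 further column headed HFD in the hippocampus counts, which matched no sample, was not used, so the HFD hippocampus values rest on the 3 columns that match titles. Columns headed LFD carry no replicate pairing. No library repeated another of its own group (chi-square per degree of freedom between 80.4 and 704 over 12 pairs). Pairs across groups were not compared.

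Counts were tested with edgeR 4.0.16 in R 4.3.3 (filterByExpr, TMM, robust glmQLFit and glmQLFTest, two-sided, Benjamini-Hochberg over all miRNAs tested, called at an adjusted p under 0.05). The SE is the log2 fold change divided by the square root of F. Diet was fitted on 6 libraries per sample type, and sample types on all 12. Arm ratios were tested by exact permutation after adding 0.5 to each count. Alternatives were DESeq2 1.42.0, RLE factors, library totals, no filter, repeated reads kept in 1 copy (pairs whose counts stay within 5% throughout and average 5 CPM or more), a replicate block in EVs, leaving out each library and, chosen after seeing the data, a fit of the HFD libraries alone with and without a replicate block. The floor of 3 counts was 0.233 to 1.64 CPM per library, which covers counting error only, since reads carry no molecular identifiers. Named miRNAs are the 6 arms, their copies, seed sharers, the 3 most alike per abundant arm and, of other intronic miRNAs, the 2 largest called changes each way per diet comparison. The arms, lists and most tests were chosen with earlier results of these data known.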

Additional observations from a re-analysis of the deposited data

How the results depend on the processing

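With library totals the median over all miRNAs went from -0.13 to 0.16 in EVs and from -0.13 to 0.032 in hippocampus (log2 fold change). In EVs called arms went from 0 to 1 with DESeq2, library totals, RLE size factors, no filter and repeated reads kept in 1 copy. Calls over all miRNAs went from 17 to 55, 38, 29, 56 and 31 with these settings. Over the omissions of single libraries called arms lay between 0 and 1, and calls over all miRNAs between 0 and 21. The arm was miR-708-5p each time. In hippocampus called arms went from 1 to 2 with DESeq2 and to 0 with library totals and with repeated reads kept in 1 copy. Calls over all miRNAs went from 65 to 109, 33 and 56 with these settings. Over omissions called arms ranged from 0 to 3 (3 without LFD 3, where 123 miRNAs were called over all). Called arms between sample types ranged from 4 to 5 in chow and from 3 to 4 in HFD mice. For the difference of diet effects called arms went from 0 to 1 with DESeq2, RLE size factors, no filter and repeated reads kept in 1 copy. Calls over all miRNAs went from 30 to 76, 46, 38 and 33 with these settings. Over omissions called arms lay between 0 and 1. The cause of these changes was not tested.

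Signs turned for miR-28a-3p in EVs with library totals (0.070; -0.37 to 0.13 over omissions), for miR-151-5p in hippocampus with DESeq2 (0.017), library totals (0.039), RLE size factors (0.018) and no filter (0.12; -0.17 to 0.34 over omissions), and for miR-151-3p between sample types with repeated reads kept in 1 copy in HFD mice (-0.18) and over omissions in chow mice (-0.028 to 0.77). The log2 difference of the arm ratio of miR-151 between sample types was 3.80 as a difference of medians and 3.07 to 3.62 over omissions, and that of miR-708 was 1.25 to 1.68. Same-numbered EV libraries did not deviate together (r = 0.020, -0.17 and -0.18), so the numbers are not taken as pairs. With the replicate block edgeR called 0 of the 6 arms and 9 miRNAs in all, against 17 without it, and miR-708-5p had a log2 fold change of -1.91 (adjusted p = 0.0602). HFD EVs and HFD hippocampus, both numbered by their titles, did not deviate together either (r = 0.084, 0.069 and -0.046). Fitted alone, chosen after seeing the data, they gave 4 called arms with the replicate block and 4 without it, with miR-708-3p at 0.86 and 0.80. The LFD numbers match no title, so no block was fitted with chow hippocampus. Depth limits miR-151-5p in EVs (6 to 36 counts) and miR-28a-5p in chow hippocampus (8 to 85 counts).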
